A study of Mus musculus with 57 samples.

Results

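Fibroblast growth factor (FGF) signalling genes are followed here by the transcription factor peaks that lie around them while mouse embryonic stem cells turn toward primitive endoderm (PrE). The 10 genes are the ligands Fgf4 and Fgf5, the receptors Fgfr1 and Fgfr2, the adaptor Grb2, the feedback inhibitors Spry2, Spry4 and Dusp6, and the ETS transcription factors Etv4 and Etv5. They were chosen by name from 21853 protein-coding genes, and a peak belongs to a gene when its summit lies within 50 kb of the transcription start site (TSS). Merging the peaks of all lists gave 202062 regions, of which 213 lie near the 10 genes. Fgf4 has 29 of these regions, Fgf5 5, Fgfr1 27, Fgfr2 10, Grb2 15, Spry2 21, Spry4 34, Dusp6 17, Etv4 12 and Etv5 43. Introns hold 107 of the regions and intergenic DNA holds 80. Around Fgf4, 17 of the 29 regions are nearer to the TSS of another gene. These other genes are Fgf3 and Fgf15, which start inside its window, and LTO1, the nearest at +45.9 and +46.7 kb.

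FGF ligands bind receptor tyrosine kinases at the cell surface, and adaptors such as GRB2 pass the signal to the RAS, MEK and ERK cascade. In the inner cell mass, FGF4 is secreted by epiblast (Epi) precursors and drives neighbouring cells toward PrE through FGFR1 and FGFR2, while the same pathway prepares embryonic stem cells to leave the naive state. ERK activity switches on its own brakes, the Sprouty proteins and the ERK phosphatase DUSP6, together with the ETS factors ETV4 and ETV5.

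The cells are the embryonic stem cell line KH2, of strain C57BL/6, with a single copy of a tetracycline-responsive transgene that expresses FLAG-tagged GATA6 and the red fluorescent protein DsRed2 when doxycycline is added. CUT&RUN, in which an antibody directs a nuclease to the sites of a protein and the released DNA is sequenced, was done for GATA6 at 0, 2, 4, 8 and 48 h, for NANOG and SOX2 at 0, 2, 4 and 8 h, and for GATA4 and SOX17 at 24 h. The 15 groups hold 2 peak lists each, 30 in all of 57 samples, and the other 27 samples were not analysed here. The study states that replicates were independent experiments, but the labels do not tie single lists to separate cultures, and the p-values measure the spread between these lists. Cells at 0 h had no doxycycline and grew in 2i medium, which contains LIF, the MEK inhibitor PD0325901 and CHIR9902. All later cells were in serum medium with LIF, with doxycycline for up to 12 h and without it for the remaining time up to 24 or 48 h. Release from the MEK inhibitor, the change of medium and GATA6 induction therefore cannot be told apart at these genes. The 6 lists of GATA6 at 4, 8 and 48 h carry the name of another time point than their record (those named 48 h are recorded as 4 h, those named 4 h as 8 h and those named 8 h as 48 h), and the time in the name is used throughout.

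The lists differ greatly in length, from 86 and 882 peaks for GATA6 at 0 h to 79358 and 62683 at 2 h. The counts below depend in part on that length. Lists of GATA6 held 47894 and 54281 peaks at 4 h, 28676 and 30234 at 8 h, and 5933 and 9767 at 48 h. NANOG lists ranged from 2255 to 52285 peaks and SOX2 lists from 11540 to 52574. The lists give no read totals. The background coverage that the peak caller used, recovered from the fold and p columns, grows with depth and was 0.928 to 1.34 fragments per base for induced GATA6, 0.865 to 1.31 for NANOG, 0.290 to 0.692 for SOX2, and 1.23 and 1.55 for SOX17. At GATA6 0 h and GATA4 it could not be read reliably. The SOX2 lists had the lowest of these values, so a weak site may be more easily missed there, which was not tested. The absence of a peak says only that none passed the caller's threshold.

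GATA6 peaks surrounded all 10 genes 2 h after induction, were fewest at 48 h, and were most numerous around Etv5 and Spry4. Neither 0 h list had a peak near any of the 10 genes, and 0.00458% of all genes had one in both lists. Lists of replicates 1 and 2 held 128 and 103 peaks near the genes at 2 h, 82 and 92 at 4 h, 52 and 62 at 8 h, and 5 and 7 at 48 h. Both lists of each later time lay below both lists of the time before it. From 2 to 48 h the log2 difference came to -4.27, against -3.24 for peaks near all protein-coding genes and -3.18 for the whole lists. Per 10000 peaks of a list, 16.1 and 16.4 lay near the 10 genes at 2 h, 17.1 and 16.9 at 4 h, 18.1 and 20.5 at 8 h, and 8.43 and 7.17 at 48 h. With the 5933 strongest peaks of every list, 12 and 11 lay near the genes at 2 h and 5 and 4 at 48 h, a log2 difference of -1.35. The share of the list near these genes was lower in both 48 h lists than in any list from 2 to 8 h. Sample titles that name GATA6 at 48 h carry the prefix JT and the word merged. Those that name 2, 4 or 8 h carry the prefix DL. The lists used here as 48 h sit in the records titled 4 h, with the prefix DL. Those used as 8 h sit in the records titled 48 h. Which mark belongs to the 48 h lists is thus not settled. The titles do not say what these marks stand for. If the marks follow the time in the name, they cannot be told apart from time in this contrast. Nor can the withdrawal of doxycycline, which was present at 2, 4 and 8 h and absent by 48 h.

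**Figure D1:**
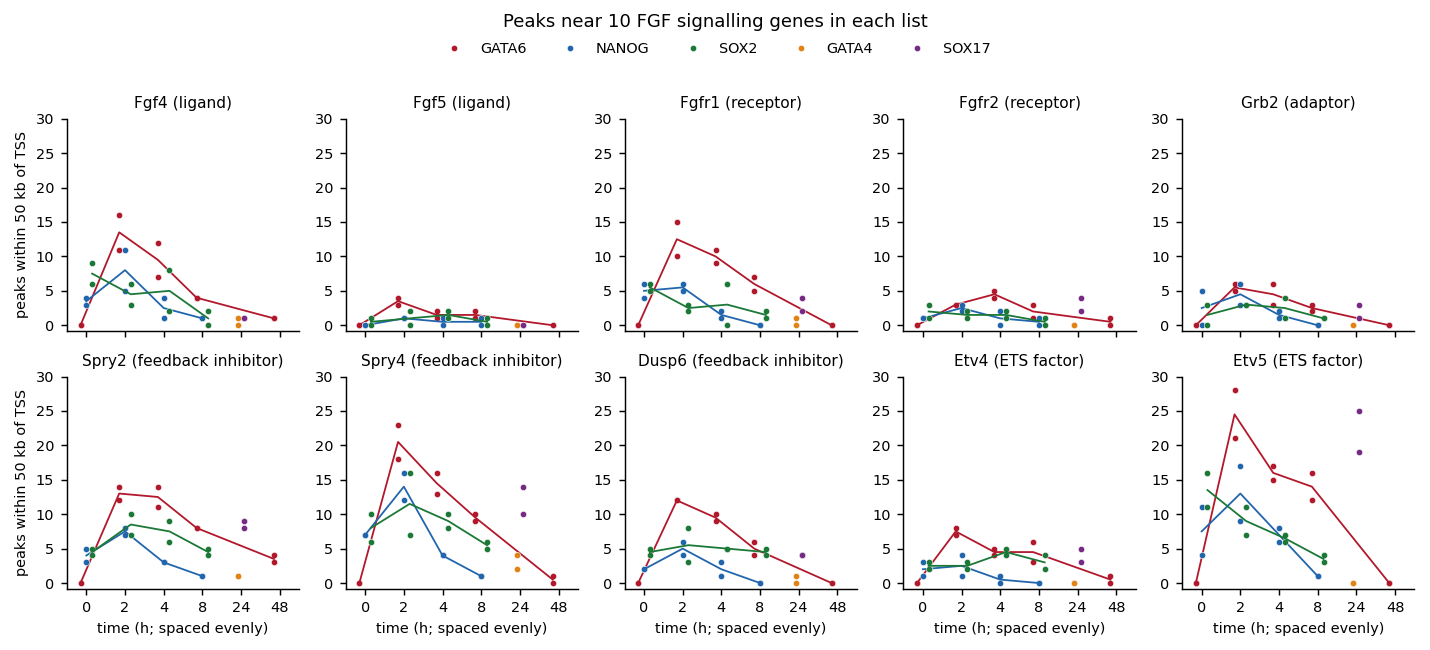
Peaks with a summit within 50 kb of the TSS (y axis, number per list) against hours after induction (x axis, spaced evenly) for each of the 10 genes; points are single lists coloured by factor and lines join the means of the 2 lists. The GATA6 means are highest at 2 h for all genes but Fgfr2, and Etv5 has the most peaks, 28 and 21.

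Among the ligands, Fgf4 had 16 and 11 GATA6 peaks at 2 h, 7 and 12 at 4 h, 4 and 4 at 8 h, and 1 and 1 at 48 h. Fgf5, the ligand of the formative and primed epiblast, had 4 and 3 at 2 h, 2 and 1 at 4 h, 1 and 2 at 8 h, and none at 48 h. The Fgf4 counts of 2 and 4 h overlap, while those of 8 and 48 h lie below both. The 48 h peaks of Fgf4 sit at different places in the 2 lists.

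The receptors differed from each other. Fgfr1 had 15 and 10 GATA6 peaks at 2 h, 9 and 11 at 4 h, 5 and 7 at 8 h, and none at 48 h. Fgfr2, a receptor enriched in PrE, had 3 and 3 at 2 h, 4 and 5 at 4 h, 1 and 3 at 8 h, and 0 and 1 at 48 h. It is the only one of the 10 genes whose 4 h lists both exceeded the 2 h lists, which happened for 1.73% of all genes with a peak at either time. Grb2, which links receptors to RAS activation, had 6 and 5, 3 and 6, 2 and 3, and 0 and 0 peaks at these 4 times.

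The 3 feedback inhibitors had 12 or more GATA6 peaks in each 2 h list. Spry4 had 23 and 18 at 2 h, 13 and 16 at 4 h, 9 and 10 at 8 h, and 0 and 1 at 48 h. Dusp6 had 12 and 12, 10 and 9, 4 and 6, and 0 and 0. Spry2, a Sprouty protein like Spry4, had 14 and 12, 14 and 11, 8 and 8, and 3 and 4, and is the one gene of the 10 with more than 1 GATA6 peak in both 48 h lists. Only 1.39% of all protein-coding genes had as many 48 h peaks as Spry2 or more. For Spry4 at 2 h the corresponding share was 0.83%.

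The ETS factors again differed. Etv5 had 28 and 21 GATA6 peaks at 2 h, 15 and 17 at 4 h, 12 and 16 at 8 h, and none at 48 h, and 0.32% of genes had as many at 2 h or more. Etv4 had 7 and 8, 5 and 4, 6 and 3, and 1 and 0 peaks. Etv5 had more GATA6 peaks than any other of the 10 genes in each list from 2 to 8 h.

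A two-sided exact permutation test of each gene over the 4 induced times of GATA6, with F on the log2 counts as the statistic, gave an unadjusted p of 0.05 or less for 8 of the 10 genes. Of all 19553 genes tested, 38.2% did so, and the smallest p that 8 lists allow is 0.00952. Dusp6 and Spry4 reached that value. The exact permutation p was 0.0190 for Fgf4, Fgfr1 and Etv5, 0.0286 for Spry2, 0.0476 for Fgf5 and Etv4, and 0.0571 for Fgfr2 and Grb2. After adjustment over all 19553 genes by the method of Benjamini and Hochberg no gene passed 0.05 (smallest adjusted p = 0.0852 by the exact permutation test). The moderated F of limma, which borrows the spread of all genes, called 9 of the 10 genes at an adjusted p of 0.05, all but Fgfr2, and 64.4% of all genes. The 10 genes had more peaks than most, with a median of 12.25 at 2 h against 3.5 over all protein-coding genes, 9.5 against 2 at 4 h, 4.75 against 1 at 8 h, and 0.25 against 0 at 48 h.

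Both 8 h lists of GATA6 lay below both 2 h lists for 9 of the 10 genes, all but Fgfr2, and for 67.6% of all genes with a peak at either time, the base of all such percentages. Both 48 h lists lay below both 2 h lists for all 10, against 81.8% of all genes, and both lay below both 8 h lists for 9, again all but Fgfr2, against 59.8%. Between 2 and 4 h the lists separated downward for 5 genes, Fgf5, Spry4, Dusp6, Etv4 and Etv5, against 34.8%. Both GATA6 lists had a peak within 50 kb of all 10 genes at 2, 4 and 8 h, at the same place or not. Of all genes, 78.3%, 71.1% and 57.7% did so. At 48 h only Fgf4 and Spry2 of the 10 did so, which is close to the background of 20.5%. At Fgf4 the 2 lists shared no region then.

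**Figure D2:**
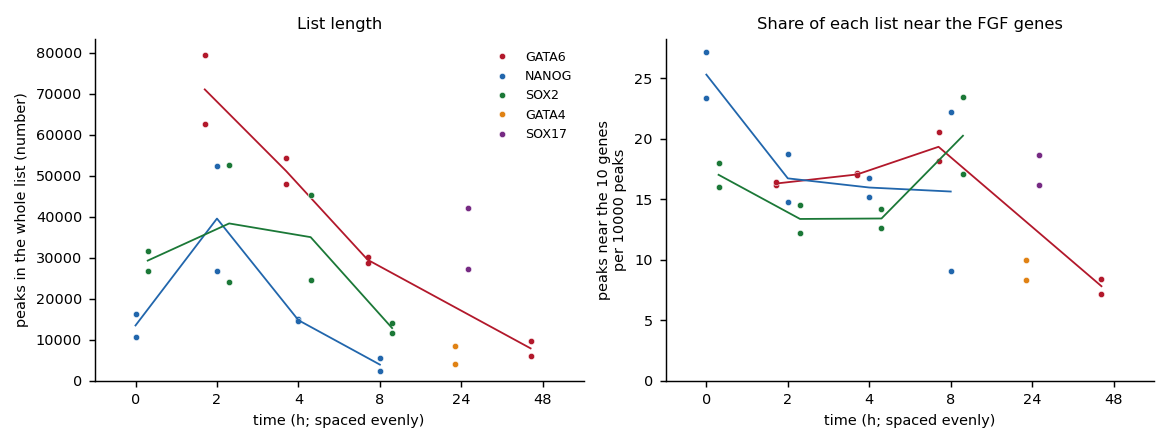
Left, number of peaks of each list; right, peaks near the 10 genes per 10000 peaks of the list, both against hours after induction (spaced evenly), with points for single lists and lines for the means of 2 lists. GATA6 shares lie between 16.1 and 20.5 from 2 to 8 h and at 8.43 and 7.17 at 48 h, and the GATA6 0 h lists, with no peak near the genes, are not drawn.

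NANOG, a pluripotency factor of the Epi lineage, already had peaks near these genes before induction and its lists were longest at 2 h. The lists held 25 and 44 peaks near the genes at 0 h, 77 and 50 at 2 h, 25 and 22 at 4 h, and 5 and 5 at 8 h. Both 2 h lists lay above both 0 h lists, and both 8 h lists were below all others. From 0 to 2 h the log2 difference came to 0.88, smaller than the 1.74 for peaks near all genes and the 1.56 for the whole lists. Per 10000 peaks the order of 0 and 2 h was the opposite, with 23.4 and 27.2 at 0 h and 14.7 and 18.7 at 2 h. When every list was reduced to its 10693 strongest peaks, the 0 h lists held 25 and 28 near the genes and the 2 h lists 16 and 21, a difference of -0.52. The direction of this comparison thus depended on the length of the lists.

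At 0 h, NANOG peaks were most numerous around Etv5, with 4 and 11, and Spry4, with 7 and 7. Fgfr1 had 4 and 6, Spry2 3 and 5, Fgf4 3 and 4, Dusp6 2 and 2, Etv4 1 and 3, Fgfr2 1 and 1, Grb2 0 and 5, and Fgf5 0 and 0. Thus 8 of the 10 genes had a NANOG peak in each list before induction, against 30.1% of all genes, and Fgf5 and Grb2 did not. At 2 h Etv5 had 17 and 9, Spry4 16 and 12, Spry2 8 and 7, Fgf4 11 and 5, and Dusp6 6 and 4. Both 2 h lists exceeded both 0 h lists for Fgf4, Fgf5, Fgfr2, Spry2, Spry4 and Dusp6, 6 of the 10 genes, against 48.7% of all genes.

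By 4 h the NANOG counts of 7 genes lay below those of 2 h in both lists, against 41.5%, and by 8 h those of 9 genes did, against 63.2%. From 4 to 8 h the lists separated downward for 6 genes, against 34.5%. The exception at 8 h was Fgf5, which had 1 and 0 peaks. When every list was reduced to its 2255 strongest peaks, the 2 h lists held 4 and 3 near the 10 genes and the 8 h lists 3 and 5, a log2 difference of 0.19 in place of -3.67, so this direction too depended on list length. Against 0 h, both 8 h lists were lower for 7 genes (33.1% of all genes): Fgf4, Fgfr1, Spry2, Spry4, Dusp6, Etv4 and Etv5. At 8 h Fgf4, Spry2, Spry4 and Etv5 still had 1 peak in each list, and 5.79% of all genes had a peak in each list then. At Spry2 and Spry4 the peaks of both lists fell in the same region, and at Fgf4 and Etv5 in different ones.

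The exact permutation test over the 4 NANOG times gave an unadjusted p of 0.05 or less for 4 of the 10 genes, against 11.5% of the 19013 genes tested. Spry4 had p = 0.00952, the smallest possible, and Fgfr1, Spry2 and Dusp6 had an exact permutation p of 0.0286. None of the 19013 genes passed after adjustment (smallest adjusted p = 0.282). limma called the same 4 genes at an adjusted p of 0.05, and 20.7% of all genes.

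SOX2 is the other pluripotency factor mapped. Its lists held 57 and 43 peaks near them at 0 h, 35 and 64 at 2 h, 57 and 35 at 4 h, and 24 and 27 at 8 h. Lists of 0, 2 and 4 h overlap, and only the 8 h lists lie apart, below all others. From 2 to 8 h the log2 difference came to -0.96, against -1.36 near all genes and -1.58 for the whole lists. With the 11540 strongest peaks of every list, the 2 h lists held 18 and 23 and the 8 h lists 18 and 27, a difference of 0.13. Etv5 had 16 and 11 SOX2 peaks at 0 h, Spry4 10 and 6, and Fgf4 9 and 6. Fgfr1 had 5 and 6 at 0 h and 2 and 3 at 2 h, the one gene of the 10 whose 2 h lists both lay below the 0 h lists (6.13% of all genes). Spry2 had 5 and 4 at 0 h and 7 and 10 at 2 h, the one gene whose lists both lay above (11.8%). Both SOX2 lists had a peak near 8 of the 10 genes at 0 h (62.6% of all genes), all but Fgf5 and Grb2. They did so near 9 at 2 h (60.9%) and at 4 h (61.8%), and near 7 at 8 h (37.3%). Among these, Fgfr1 had its peaks at different places in the 2 lists at 2 and 8 h.

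Only Etv5 had an exact permutation p of 0.05 or less over the 4 SOX2 times (p = 0.0381), where 2.8% of 19870 genes did. No gene passed after adjustment by the exact permutation test (smallest adjusted p = 0.720) or by limma (smallest 0.151 over all genes, with 3291 genes at an unadjusted p of 0.05 or less). Both 8 h lists lay below both 0 h lists for Fgf4, Fgfr1 and Etv5, 3 of the 10 against 45.3% of all genes. They lay below both 2 h lists for 5 genes (36.7%) and below both 4 h lists for Spry2, Spry4 and Etv5 (38.6%).

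Of the PrE factors at 24 h, SOX17 had many peaks near these genes and GATA4 few. SOX17 had 51 and 68 peaks near the 10 genes, and GATA4 had 7 and 4, from lists of 27328 and 41979 and of 8427 and 4006 peaks. Etv5 had 19 and 25 SOX17 peaks, and 0.02% of genes had as many or more. Spry4 had 10 and 14, Spry2 9 and 8, Dusp6 4 and 4, and Etv4 3 and 5. Fgfr1 and Fgfr2 had 2 and 4 each, Grb2 1 and 3, Fgf4 1 and 1, and Fgf5 none. The SOX17 peaks thus lay mostly around Etv5, Spry4 and Spry2. Both SOX17 lists had a peak near 9 of the 10 genes, all but Fgf5, against 61.3% of all genes. GATA4 had one in both lists near Spry2 and Spry4 alone, 2 of the 10 against 19.8%.

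**Figure D3:**
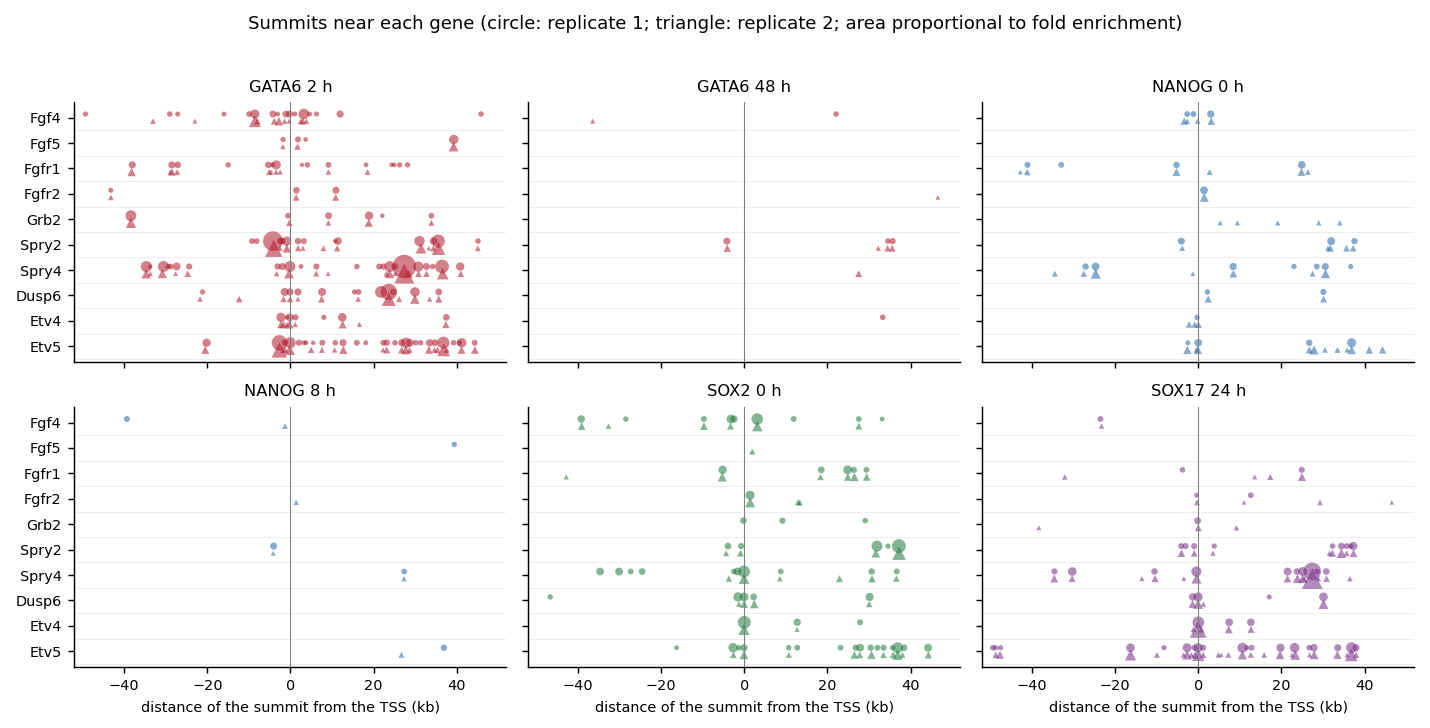
Summits around each of the 10 genes in 6 groups; the x axis is the distance from the TSS in kb along the strand of the gene, circles are replicate 1, triangles replicate 2, and the area of a point is proportional to the fold enrichment. The largest points of GATA6 at 2 h and of SOX17 lie 27.4 kb downstream of the Spry4 start, and near-empty panels show GATA6 at 48 h and NANOG at 8 h.

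Peak counts leave out how strong a site is, so the strongest region of each gene was followed through all lists by its fold enrichment over the local background, and the sites are named by their distance from the TSS along the strand of the gene (plus is downstream). Coordinates are of mm10 and sequences are of its plus strand, 5′ to 3′. Windows of 201 bases around the strongest summit were searched on both strands for the GATA words AGATAA or AGATAG and TGATAA or TGATAG, the SOX words CTTTGT or CATTGT, and the OCT words ATGCAAA or ATGCTAA, of which none contains another. Capitals in the sequences mark these words. A match describes the letters only.

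The first sequence is shown because it is the site near the 10 genes where a SOX word and an OCT word stand together. It lies 3.1 kb downstream of the Fgf4 TSS, in the 3′ UTR of Fgf4 (region chr7:144863576-144865347), where an enhancer of this gene is known. SOX2 had folds of 18.4 and 15.1 there at 0 h, 7.87 and 22.3 at 2 h, 10.2 and 8.03 at 4 h, and a peak in 1 list at 8 h with 4.18. NANOG had 7.36 and 7.83 at 0 h, 11.1 and 6.19 at 2 h, 4.69 in 1 list at 4 h and none at 8 h. GATA6 had 15.8 and 6.63 at 2 h, 4.96 and 5.70 at 4 h, 4.36 in 1 list at 8 h and no peak at 48 h, and neither GATA4 nor SOX17 had one. All 3 factors thus had fewer peaks or lower folds here late than early. A SOX word followed within 4 bases by an OCT word was found in 1 of the 36 SOX2 0 h regions near the genes, this one, and in 39 of 17260 such regions genome-wide (0.226%). Only 30 bases are printed.
Fgf4 +3.1 kb (chr7:144864387-144864416): gaaaactCTTTGTttggATGCTAAtgggat

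A second Fgf4 site, upstream, belonged nearly to GATA6 alone and is shown for its repeat of the GATA word. At -8.6 kb (chr7:144852252-144854199), GATA6 had 12.0 and 19.9 at 2 h, 18.1 and 19.2 at 4 h, 16.6 and 16.1 at 8 h and none at 48 h. These folds were about level over the first hours, unlike those at +3.1 kb. NANOG had peaks of both lists here at 4 h only, with 6.28 and 4.26, and SOX2 never had a peak in both lists of a time. The window around the strongest 8 h summit, the one printed, held 17 GATA words. Windows around the strongest summits of 2 and 4 h, where the highest folds were larger, held 3 and 2.
Fgf4 -8.6 kb (chr7:144852655-144852855): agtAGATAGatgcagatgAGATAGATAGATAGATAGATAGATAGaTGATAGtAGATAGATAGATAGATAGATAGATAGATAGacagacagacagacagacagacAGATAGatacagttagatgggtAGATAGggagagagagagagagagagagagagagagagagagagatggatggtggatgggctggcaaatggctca

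Near Fgf5 the strongest GATA6 region lay at +39.3 kb (chr5:98293041-98294012), nearer to the TSS of Cfap299, with 12.4 and 13.3 at 2 h, 13.7 and 20.0 at 4 h, and 6.71 and 10.0 at 8 h. Neither NANOG nor SOX2 had a peak there at 0 h.

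In the first part of Fgfr2, an intronic region at +1.4 kb (chr7:130264305-130265369) carried SOX2 with 11.8 and 14.2 at 0 h, 10.1 and 15.5 at 2 h, 10.8 and 10.0 at 4 h, and 8.14 in 1 list at 8 h. NANOG had 8.61 and 11 at 0 h, 11.1 and 9.01 at 2 h, and 1 list each at 4 h (5.70) and 8 h (4.13). GATA6 joined with 6.12 and 6.14 at 2 h and 7.14 and 7.32 at 4 h, with its 2 h summit 1 bp from that of NANOG. It is the only region near Fgfr2 with a peak of both 0 h lists for NANOG or for SOX2. The sequence around the SOX2 summit is shown because it holds a GATA word and no SOX or OCT word of this list.
Fgfr2 +1.4 kb (chr7:130264701-130264901): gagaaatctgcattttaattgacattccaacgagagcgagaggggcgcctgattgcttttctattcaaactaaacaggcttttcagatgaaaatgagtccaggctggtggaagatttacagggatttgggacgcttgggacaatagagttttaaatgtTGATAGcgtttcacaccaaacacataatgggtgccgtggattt

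The strongest GATA6 region of Fgfr2 at 2 h was another, at +10.9 kb, with 6.97 and 6.56 at 2 h, 6.03 and 6.80 at 4 h, and 8.08 and 13.2 at 8 h, and it had no NANOG or SOX2 peak at 0 h. For Fgfr1 the strongest GATA6 region at -38.2 kb (chr8:25479978-25481277), in an intron of the lincRNA gene Gm31045, had 7.29 and 10.1 at 2 h, 9.30 and 17.3 at 4 h, and 13.4 and 12.2 at 8 h. No NANOG, SOX2 or SOX17 list had a peak there. At -5.3 kb SOX2 had 9.89 and 11.4 and NANOG 5.78 and 8.76 at 0 h, and GATA6 had 5.98 and 5.68 at 2 h. An intronic region at +24.9 kb had 11.1 and 8.18 for SOX2 and 8.25 and 8.72 for NANOG at 0 h, 5.26 and 9.24 for SOX17 at 24 h, and 4.30 and 5.40 for GATA6 at 4 h.

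Near the adaptor gene Grb2 the strongest GATA6 site at -38.4 kb (chr11:115746162-115747548) is nearer to the TSS of Tmem94, with 16.6 and 14.9 at 2 h. SOX2 had no peak there at 0 h and 11.7 and 20.4 at 2 h. At the Grb2 TSS itself SOX17 had 6.55 and 6.86, and GATA6 4.59 and 6.08 at 2 h.

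**Figure D4:**
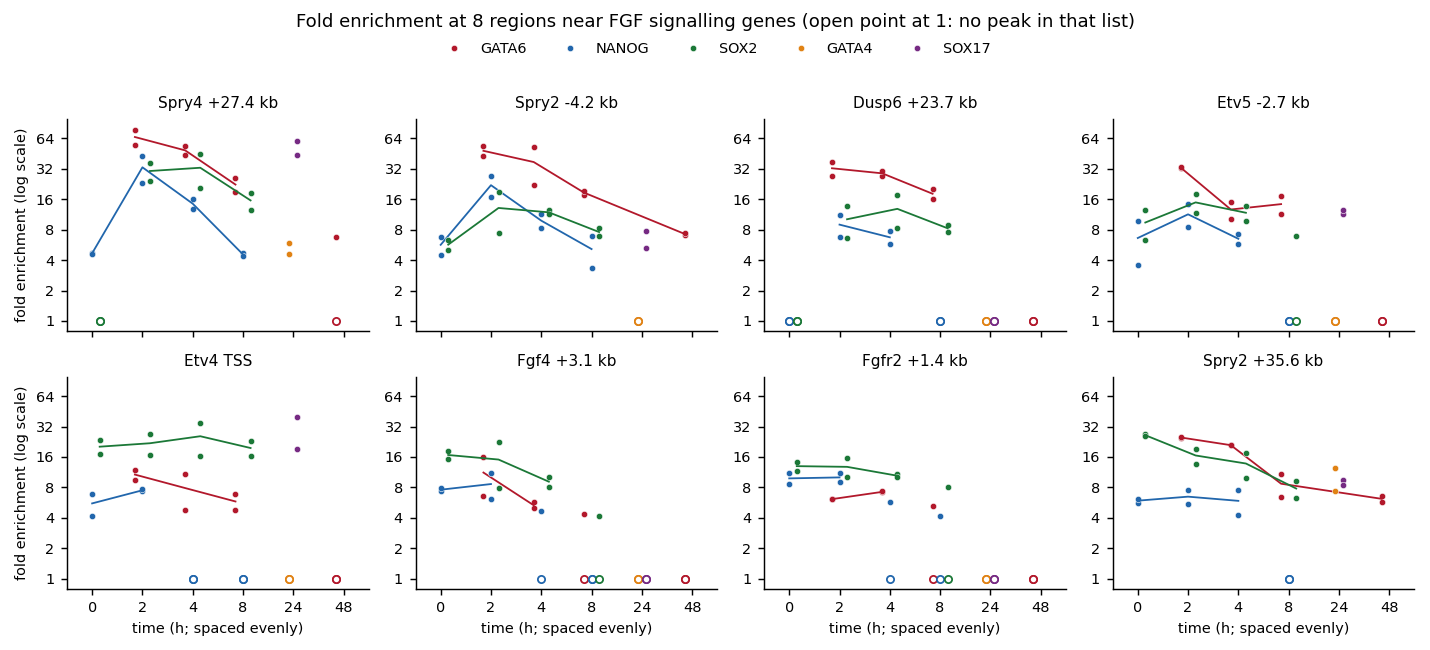
Fold enrichment over local background (y axis, log scale) at 8 regions against hours after induction (x axis, spaced evenly); points are single lists, an open point at 1 stands for a list with no peak, and lines join means of groups with a peak in both lists. At Spry4 +27.4 kb, NANOG and SOX2 points are higher at 2 h than at 0 h, while at Fgf4 +3.1 kb and Fgfr2 +1.4 kb SOX2 is there from 0 h.

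The strongest GATA6 region near any of the 10 genes lay 27.4 kb downstream of the Spry4 start, between genes (chr18:38572182-38574992). GATA6 had folds of 76.5 and 55.4 at 2 h, 43.6 and 53.7 at 4 h, 18.8 and 25.9 at 8 h, and 6.77 in 1 list at 48 h, and its 2 h mean ranked 66 of 44768 GATA6 2 h regions. NANOG had 4.73 and 4.61 at 0 h, 43.2 and 22.9 at 2 h, 12.9 and 16.0 at 4 h, and 4.75 and 4.35 at 8 h. SOX2 had no peak at 0 h, 24.2 and 36.6 at 2 h, 44.9 and 20.6 at 4 h, and 18.6 and 12.5 at 8 h. NANOG and SOX2 were thus both higher at 2 h than at 0 h in both lists. At 24 h SOX17 had 43.4 and 59.6, rank 45 of 19082 SOX17 regions, and GATA4 4.64 and 5.92.

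Of the mean summits in this Spry4 region, that of NANOG at 2 h lay 11 bp from that of GATA6 at 2 h, that of SOX17 3 bp and that of GATA4 59 bp. The NANOG 0 h lists differed, with summits at 28519 bp in replicate 1 and 27495 bp in replicate 2, against 27415 and 27424 bp for GATA6 at 2 h. A nearby region at +25.1 kb had 12.0 and 7.64 for GATA4 and 11 and 10.7 for SOX17, but 6.38 and 3.30 for GATA6 at 2 h. Just upstream of the Spry4 TSS (-0.1 kb) SOX2 was strong at every time, with 19.8 and 15.7 at 0 h and 10.9 and 11 at 8 h, and SOX17 had 14.2 and 14.0.

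Spry2 still had GATA6 in both lists at 48 h. Its upstream region at -4.2 kb (chr14:105899795-105901717) is intergenic and had GATA6 folds of 53.9 and 42.4 at 2 h, 22.1 and 52.5 at 4 h, 17.8 and 19.4 at 8 h, and 7.04 and 7.48 at 48 h. NANOG had 6.83 and 4.49 at 0 h, 27.2 and 16.8 at 2 h, 8.31 and 11.3 at 4 h, and 6.93 and 3.35 at 8 h. Here too both NANOG 2 h lists were above both 0 h lists. SOX2 had 6.33 and 5.04 at 0 h, 7.49 and 18.7 at 2 h, 12.4 and 11.3 at 4 h, and 8.22 and 6.93 at 8 h. SOX17 had 5.32 and 7.77.

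A cluster far downstream of Spry2 also held GATA6 at 48 h. At +35.6 kb (chr14:105858864-105861506), in an intron of the lincRNA gene Gm48970, GATA6 had 24.6 and 25.3 at 2 h, 20.8 and 21.1 at 4 h, 11 and 6.46 at 8 h, and 5.69 and 6.65 at 48 h. GATA4 had 12.5 and 7.40, at a summit 21.5 bp from that of GATA6 at 2 h. SOX2 had 26.9 and 25.6 at 0 h in the same merged region, with a mean summit 1595.5 bp away at that time. At +34.4 kb SOX17 had 6.28 and 13.0 and GATA6 at 48 h 4.32 and 5.82. These 3 Spry2 regions are the only ones near the 10 genes with a peak of both GATA6 48 h lists. Their sequences around the strongest GATA6 summits are shown for the first and second, since these carry GATA6 at 48 h near the 10 genes.
Spry2 -4.2 kb (chr14:105900945-105901145): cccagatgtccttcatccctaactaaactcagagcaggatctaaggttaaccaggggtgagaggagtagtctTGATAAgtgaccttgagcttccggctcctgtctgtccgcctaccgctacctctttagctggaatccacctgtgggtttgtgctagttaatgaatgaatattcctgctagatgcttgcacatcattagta
Spry2 +35.6 kb (chr14:105861080-105861280): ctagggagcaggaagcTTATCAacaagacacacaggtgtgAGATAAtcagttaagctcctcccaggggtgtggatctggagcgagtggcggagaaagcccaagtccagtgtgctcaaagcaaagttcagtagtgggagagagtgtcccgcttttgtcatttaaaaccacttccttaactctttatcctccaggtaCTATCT

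Dusp6 had its strongest GATA6 region at +23.7 kb, between genes (chr10:99284287-99288149), with 37.7 and 27 at 2 h, 27.4 and 30.2 at 4 h, 16.0 and 20.2 at 8 h, and none at 48 h. Neither NANOG nor SOX2 had a peak there at 0 h. At 2 h NANOG had 11.1 and 6.84, with its summit 2.5 bp from that of GATA6, at 4 h 7.67 and 5.77, and at 8 h none. SOX2 had 6.62 and 13.7 at 2 h, 17.5 and 8.22 at 4 h, and 7.53 and 8.97 at 8 h. SOX17 had no peak there and lay instead at +30.0 kb, with 10.7 and 14.1, and at -0.1 kb, with 11.5 and 13.3. The sequence is shown as a site with GATA6 at 2 h and with neither pluripotency factor at 0 h.
Dusp6 +23.7 kb (chr10:99286830-99287030): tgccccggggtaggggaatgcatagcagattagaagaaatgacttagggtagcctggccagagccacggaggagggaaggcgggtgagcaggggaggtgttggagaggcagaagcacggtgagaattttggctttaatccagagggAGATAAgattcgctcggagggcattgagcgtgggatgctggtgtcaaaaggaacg

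Both ETS factor genes had their strongest GATA6 region close to the start. Etv5 had 32.6 and 33.4 for GATA6 at 2 h in an intergenic region at -2.7 kb (chr16:22441310-22442866), 10.2 and 15.2 at 4 h, 11.3 and 17.3 at 8 h, and none at 48 h. SOX2 had 12.6 and 6.26 at 0 h, 11.7 and 18.0 at 2 h, 13.7 and 9.82 at 4 h, and 6.96 in 1 list at 8 h. NANOG had 3.54 and 9.68 at 0 h, 14.2 and 8.47 at 2 h, 5.76 and 7.24 at 4 h, and none at 8 h. SOX17 followed with 11.4 and 12.6. The summits of GATA6 at 2 h and SOX2 at 0 h were 14 bp apart there. The sequence is shown because it holds both a GATA word and SOX words.
Etv5 -2.7 kb (chr16:22442288-22442488): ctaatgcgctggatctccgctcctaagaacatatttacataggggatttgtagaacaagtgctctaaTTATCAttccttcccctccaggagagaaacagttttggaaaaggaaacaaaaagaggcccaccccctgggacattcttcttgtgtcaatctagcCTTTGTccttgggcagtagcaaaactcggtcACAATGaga

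At the Etv5 TSS (chr16:22439477-22440367), GATA6 had 17.5 and 14.8 at 2 h and SOX17 12.3 and 21.9. NANOG had 8.28 and 9.57 there at 0 h and 17.4 and 11.9 at 2 h. The strongest Etv5 region of NANOG and SOX2 at 0 h was intronic, at +36.9 kb, with 11.6 and 10.1 for NANOG and 16.2 and 14.5 for SOX2, and SOX17 had 17.0 and 22.7 there. The Etv4 start (chr11:101784810-101788002) carried SOX2 and SOX17 most strongly. SOX2 had 23.3 and 17.1 at 0 h, 16.6 and 27.2 at 2 h, 35.0 and 16.3 at 4 h, and 16.3 and 23.0 at 8 h, and SOX17 had 19.3 and 39.6. Its summits of SOX2 at 0 h and SOX17 at 24 h were 39 bp apart. GATA6 had 12.0 and 9.47 at 2 h, with a mean summit 1204.5 bp from that of SOX2, although the summits of its 2 lists, at -2277 and -260 bp, were themselves apart.

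Regions with a peak of both lists were then compared between factors. Of 81 GATA6 2 h regions near the genes, 32 (39.5%, exact 95% binomial interval 28.8 to 51.0, counting error only) overlapped a NANOG 0 h peak of either list, against 10668 of 44774 genome-wide (23.8%). This share near the genes was 25.9% without NANOG 0 h replicate 2, where the genome-wide share was 15.4%. A SOX2 0 h peak was shared by 50.6% near the genes and 39.1% genome-wide, and a SOX17 peak by 48.1% and 39.0%. A GATA6 peak at 8 h lay in 60.5% of these regions and 52.9% genome-wide, and at 48 h in 5 of 81 (6.17%) and 10.8%. Spry4 held 15 and Etv5 17 of the 81 regions, and each held 8 of the 32 with a NANOG 0 h peak. The interval given above takes the regions as independent. The regions near the genes share libraries with the rest and were not tested against them.

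Of the 39 NANOG 2 h regions near the genes, 39 overlapped a GATA6 2 h peak, against 95.6% genome-wide, and 16 had no NANOG peak at 0 h. The 19 NANOG 0 h regions held a SOX2 0 h peak in 18 cases (94.7%, against 91.3% genome-wide) and a GATA6 2 h peak in 17 (89.5%, against 88.6%). Of the 42 SOX17 regions, 28 (66.7%) overlapped a SOX2 0 h peak, against 46.6% genome-wide, and 34 (81.0%) a GATA6 2 h peak, against 73.6%. Etv5 held 16, Spry4 9 and Spry2 7 of these 42 regions, so the shares rest largely on these genes. Folds were taken over the regions merged from all lists, a slightly different set. There the 78 GATA6 2 h regions near the genes were typical, with a median of 6.82 against 6.92 over all 44768. The 40 SOX17 regions had 8.35 against 6.53 over all 19082.

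GATA words stood within 100 bases of the summit in 38 of the 81 GATA6 2 h regions near the genes (46.9%), against 54.1% of all 44774 GATA6 2 h regions. Near Etv5 they stood in 5 of 17, near Spry4 in 6 of 15, near Spry2 in 6 of 10, near Fgfr1 in 5 of 8 and near Dusp6 in 4 of 8. The printed GATA6 windows each held a GATA word, but not all strong sites did. At Spry4 +27.4 kb the window of the strongest GATA6 summit held none at 2 h and 1 at 4 h and at 8 h. Those at the Etv4 and Etv5 starts held none at 2 h. SOX words stood in 22 of 42 SOX17 regions (52.4%), against 45.2% of all, and in 17 of 36 SOX2 0 h regions (47.2%), against 44.8%.

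A wider list of 48 further genes of the pathway (other ligands and receptors, adaptors and kinases, feedback inhibitors, and transcription factors or targets) gives the setting. Its ligands include Fgf3 and Fgf15, which start inside the Fgf4 window and so share peaks with Fgf4. They had means of 13.5 and 12.5 GATA6 peaks at 2 h. For GATA6 at 2 h, 47 of the 48 had a peak in each list (78.3% of all genes), and at 48 h 18 of the 48 did (20.5%). Both 48 h lists lay below both 2 h lists for 44 of the 48 (81.8% of all genes), and both NANOG 2 h lists above both 0 h lists for 30 (48.7%). An unadjusted exact permutation p of 0.05 or less was reached by 29 of the 48 for GATA6 (38.2% of all genes), 13 for NANOG (11.5%) and 1 for SOX2 (2.8%), and no adjusted p reached it. By role, the median per gene at GATA6 2 h was 7.5 peaks for the 9 ligands, 4.5 for the 3 receptors, 7.5 for the 17 adaptors and kinases, 9.0 for the 9 feedback inhibitors and 6.5 for the 10 transcription factors or targets, against 3.5 over all genes. SOX17 had a median of 9.0 peaks at the 9 feedback inhibitors and of 3.0 at the 9 ligands, against 1.5 over all genes.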

How the data were processed

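The deposited files are narrowPeak lists, 1 per library. Per the labels and the study's methods, the authors aligned reads with Bowtie2 to mm10 (GRCm38), removed blacklisted regions with SAMtools, marked duplicates with Picard but kept them for cell lines, used short fragments for factors, and called narrow peaks with MACS against a control-antibody library. The fold enrichment, a ratio, and the −log10 p and −log10 q values of each peak are as the authors deposited them. The score column was not used. All other results were computed here. The lists give no read counts.

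Genes came from GENCODE vM21, and the TSS was the 5′ end of the principal transcript, because the gene records of Fgfr2 and Fgf4 start far upstream. A peak was given to every gene with a TSS within 50 kb of its summit. Counts were transformed as log2(peaks + 1). Genes with no peak in any list of a factor were not tested. Time was tested per gene with an exact permutation test over 105 distinct arrangements of 8 lists, two-sided, adjusted over all genes by the method of Benjamini and Hochberg. limma 3.58.1 was the alternative. The test code was tested on simulated data. Comparisons of 2 lists with 2 were not tested, and lists were said to separate when both lay on one side. Regions are merged overlapping peaks of all lists.

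The 10 genes, the 48 further genes, the words and the tests were chosen with earlier results of these data known. Named regions are, for each gene, that with the highest mean fold of GATA6 2 h, GATA6 48 h, NANOG 0 h, SOX2 0 h, GATA4 or SOX17 in both lists, and that nearest to the TSS. Lists with the same replicate number did not deviate together (correlation of deviations -0.17 to 0.06 over 18 pairs), so they were not paired. Alternatives were the window, the TSS, a −log10 q of at least 5, equal list lengths, the recorded GATA6 times, the 0 h lists, limma, a replicate block and leaving out each list. The start of the gene record as TSS was an alternative chosen after seeing the data. Python 3.11.15, SciPy 1.17.1, pandas 2.3.3, pysam 0.24.0 and R 4.3.3 were used.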

Additional observations from a re-analysis of the deposited data

How the results depend on the processing

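With the number of peaks made equal in every list, the difference of GATA6 48 against 2 h was -1.35, that of NANOG 2 against 0 h reversed to -0.52, that of NANOG 8 against 2 h reversed to 0.19, and that of SOX2 8 against 2 h reversed to 0.13 (log2, against -4.27, 0.88, -3.67 and -0.96 as reported). For GATA6 the value was -5.58 with a window of 25 kb, -3.35 with 100 kb and -1.02 with the recorded times. For NANOG 8 against 2 h it was -4.17 with 25 kb and -6.29 with only peaks whose −log10 q reached 5. The share of GATA6 2 h regions with a NANOG 0 h peak was 26.3% for regions of either list (13.9% genome-wide). Leaving out 1 list gave -4.53 to -4.04 for GATA6, 0.53 (without NANOG 0 h replicate 1) to 1.34 (without NANOG 0 h replicate 2) and -3.94 to -3.32 for NANOG, -1.33 to -0.46 (without SOX2 2 h replicate 2) for SOX2, and 25.9 to 35.8% for the share (27.3% without GATA6 2 h replicate 2, 15.9% genome-wide). Of the 10 genes, adjusted calls for GATA6 numbered 4 with 100 kb (21.7% of all genes), 9 with limma and 10 with the 0 h lists included (47.2%), and for NANOG 4 with limma. These counts were 0 to 0 when 1 list was left out and 0 with the replicate block for GATA6, NANOG and SOX2, where the fewer lists or arrangements also limit the smallest p. The causes of the other changes were not tested. The number of peaks of single genes in single groups moved by more than the spread between lists in 332 of 1040 alternative values.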

Other observations

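The genes whose peak counts over all 30 lists were most like those of each FGF gene, by Pearson's r of the log2 counts, were Vwa3b (0.974) and Tgif1 (0.969) for Spry4, Bcar3 (0.972) and Zfp219 (0.970) for Dusp6, Atp1b1 (0.965) and Mycn (0.962) for Spry2, and H2al2a (0.961) and Ahnak (0.956) for Etv5. For Fgf4 they were Mknk1 (0.938) and Mob3c (0.935), for Fgfr1 Ncor1 and Pigl (both 0.933), for Etv4 Wdfy2 (0.918) and Fam102a (0.917), and for Grb2 Abcg5 and Abcg8 (both 0.911). Fgfr2 had Dhx30 (0.881) and Bag5 (0.877), and Fgf5 had Ccl6 (0.875) and Krt2 (0.872). All genes share the lengths of the 30 lists, and genes whose windows overlap share peaks, so high values are common and are given as a description.

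With the strongest 5933 peaks of each GATA6 list, Spry2 had a mean of 2.5 peaks at 2 h and 3.0 at 48 h, while Spry4 had 4.0 and 0.5, Etv5 2.0 and 0.0, and Dusp6 1.5 and 0.0. Among the strongest GATA6 peaks of each time, those near Spry2 were thus as many late as early, and those near the other feedback inhibitors and Etv5 were fewer. These means rest on 2 lists of few peaks and were not tested.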
